A study of Mus musculus with 9 samples.

Results

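Expression of 6 genes of non-canonical olfactory neurons, Gucy2d, Pde2a, Cnga3, Car2, Trpc2 and Gucy1b2, was examined in the main olfactory epithelium (MOE) of the mouse. The genes were selected by name as genes of guanylate cyclase D (GC-D) necklace neurons or of Trpc2/Gucy1b2 neurons, and are 6 of the 24421 genes in the raw count table. The data are 9 RNA-seq libraries of whole MOE dissected at postnatal day 14, with 3 libraries each from wild-type mice (WT), TAAR enhancer 2 +/- mice (het) and TAAR enhancer 2 -/- mice (homo). TAAR enhancer 2 is a regulatory element within the Taar gene cluster, and it was deleted in the germline by co-injecting Cas9 mRNA and guide RNAs into zygotes, so that every cell of a mutant carries the deletion. A single mutant line was used, the genotypes were littermates, and both sexes were used in the study. The strain is labelled C57BL/6, while the study describes its mouse lines together as of mixed background. No other allele or agent is given for these mice. The labels number the libraries 1 to 3 within each genotype without saying what the numbers stand for, and do not say that each library is a separate animal, so the p-values below measure the spread between libraries, part of which may be technical.

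Most olfactory sensory neurons detect odorants through a G protein-coupled receptor, Gnal, the adenylyl cyclase Adcy3 and the cAMP-gated channel subunit Cnga2. Necklace neurons use cGMP instead. They carry the receptor guanylate cyclase GC-D, encoded by Gucy2d, the cGMP-gated channel subunit Cnga3, the cGMP-stimulated phosphodiesterase Pde2a and carbonic anhydrase II, encoded by Car2, which takes part in their response to carbon dioxide. They project to a ring of glomeruli in the caudal olfactory bulb and express Ms4a proteins as chemoreceptors. A separate small population expresses Trpc2, the cation channel otherwise known from the vomeronasal organ, and part of it expresses Gucy1b2, a soluble guanylate cyclase subunit linked to the detection of low oxygen. Gucy2d is the most specific necklace gene of the list, whereas Pde2a, Cnga3 and Car2 are also used by other cells.

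Total counts were between 20527992 and 32262005 per library. The mature neuron marker Omp was between 1999 and 2388 CPM (counts adjusted for library size) and 7 immature neuron markers summed to between 2164 and 3005 CPM. Taar6, which lies beside the enhancer, served as a check of the labels. It had normalized counts of 166, 168 and 158 in WT, 115, 112 and 133 in het, and 16.0, 15.4 and 18.7 in homo, which separates the genotypes in the labelled order. The libraries numbered 1 stood apart from the others in every genotype, with 1771 of 19775 genes, 8.96%, called between them and the libraries numbered 2 and 3. In addition, WT replicate 3 was high for myeloid markers, with a sum of 608 CPM over 7 genes against at most 286 CPM in any other library. Het replicate 3 was high for vomeronasal receptor genes, with 3231 counts over 338 Vmn1r and Vmn2r genes against 348 to 759 counts elsewhere.

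Trpc2 had no count in any of the 9 libraries, whereas the other 5 genes were detected in all of them. A count of 0 allows up to 3 counts, which is between 0.0928 and 0.147 CPM depending on the library and covers counting error only. Trpc2 was also at 0 in het replicate 3, where the vomeronasal receptor genes were highest. The Trpc2 gene lies on chromosome 7 from 102083116 to 102096396 on the plus strand (GRCm38/mm10, GENCODE vM21). In this annotation it is overlapped on the same strand by Xntrpc, from 102065713 to 102096864, a readthrough gene that joins exons of its upstream neighbour Xndc1 to those of Trpc2. All 2874 exon bases of Trpc2 were covered by exons of Xntrpc or Xndc1, so that 0% of its exon bases belonged to Trpc2 alone. For Gucy2d, Pde2a, Cnga3, Car2 and Gucy1b2, 100% of exon bases were free of other genes.

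The coding sequences show how far the 2 transcripts coincide. The last 2659 of the 2673 coding bases of the single Trpc2 transcript, 99.5%, were identical to the end of the 3795-base coding sequence of the first listed Xntrpc transcript. Coding bases 1 to 60 of Trpc2 and 1123 to 1182 of Xntrpc are printed from 5′ to 3′ because they hold the point at which the coding sequences part, with the 14 bases proper to each in capitals and the shared bases in lower case.
Trpc2: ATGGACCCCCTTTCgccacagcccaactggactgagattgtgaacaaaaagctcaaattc
Xntrpc: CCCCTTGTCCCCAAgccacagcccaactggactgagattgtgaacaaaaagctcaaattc
Of the 2825 windows of 50 bases in the Trpc2 transcript, 2777, or 98.3%, also occurred in another gene's transcripts. The same share was 0.1% for Cnga3 and 0% for Gucy2d, Pde2a, Car2 and Gucy1b2.

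**Figure D1:**
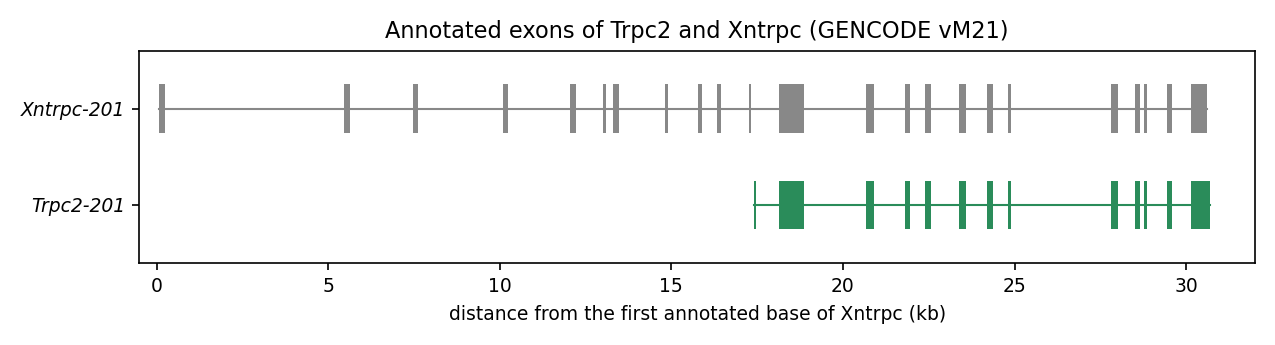
Exons of the Trpc2 transcript and of 1 Xntrpc transcript in GENCODE vM21, drawn to scale as boxes against the distance in kb from the start of the Xntrpc gene. After its opening exon, Trpc2 has its exons where Xntrpc has them, and the opening exon and the end of the last are covered by other transcripts of Xntrpc and Xndc1.

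Xntrpc itself had 3 counts over all 9 libraries, 1 each in WT replicates 2 and 3 and het replicate 2, and only 468 of its 5673 exon bases, 8.2%, were free of other genes. Xndc1, with 53.1% of its exon bases free, had 2504 counts over all libraries and normalized counts of 267 ± 53 for WT, 261 ± 34 for het and 284 ± 48 for homo (SD, n = 3). Across the table, genes with nearly all exon bases shared were often at 0. Of 217 genes with under 5% of exon bases free, 111 had no count in any library, a share of 51.2%, against 2307 of 23010 genes with 50% or more free. Among protein-coding genes the counts were 4 of 16 genes and 1209 of 19780 genes (6.11%). Trpc2 itself is counted among the 111 and among the 4. Genes free of overlap were also found at 0. The hemoglobin genes Hba-a1, Hba-a2, Hbb-bs and Hbb-bt were also at 0 in all 9 libraries although no other gene overlapped their exons in position. Whether their sequences also occur in other genes was not computed. The erythroid genes Alas2 and Slc4a1 were counted in every library. The annotation used for counting and the treatment of reads that overlap several genes are not given in the sources used here, and whether either sets the Trpc2 value was not tested. With this untested, the listed 0 is not read as a level of the channel. Without counts, no comparison between genotypes was possible.

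The 5 counted genes differed widely in level per unit of length. In CPM per kb of exon, the median level over 9 libraries was 33.8 for Car2 (range 29.7 to 43.0), 7.10 for Pde2a (6.25 to 8.29), 1.53 for Gucy1b2 (1.01 to 1.95), 1.08 for Gucy2d (0.890 to 1.63) and 0.162 for Cnga3 (0.0781 to 0.298). The ranges of Gucy1b2 and Gucy2d overlapped, and no other neighbours in this order did. On the same scale the canonical channel subunit Cnga2 had a median level of 179 CPM per kb (167 to 198). Cnga3 rested on 10 to 24 raw counts per library.

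**Figure D2:**
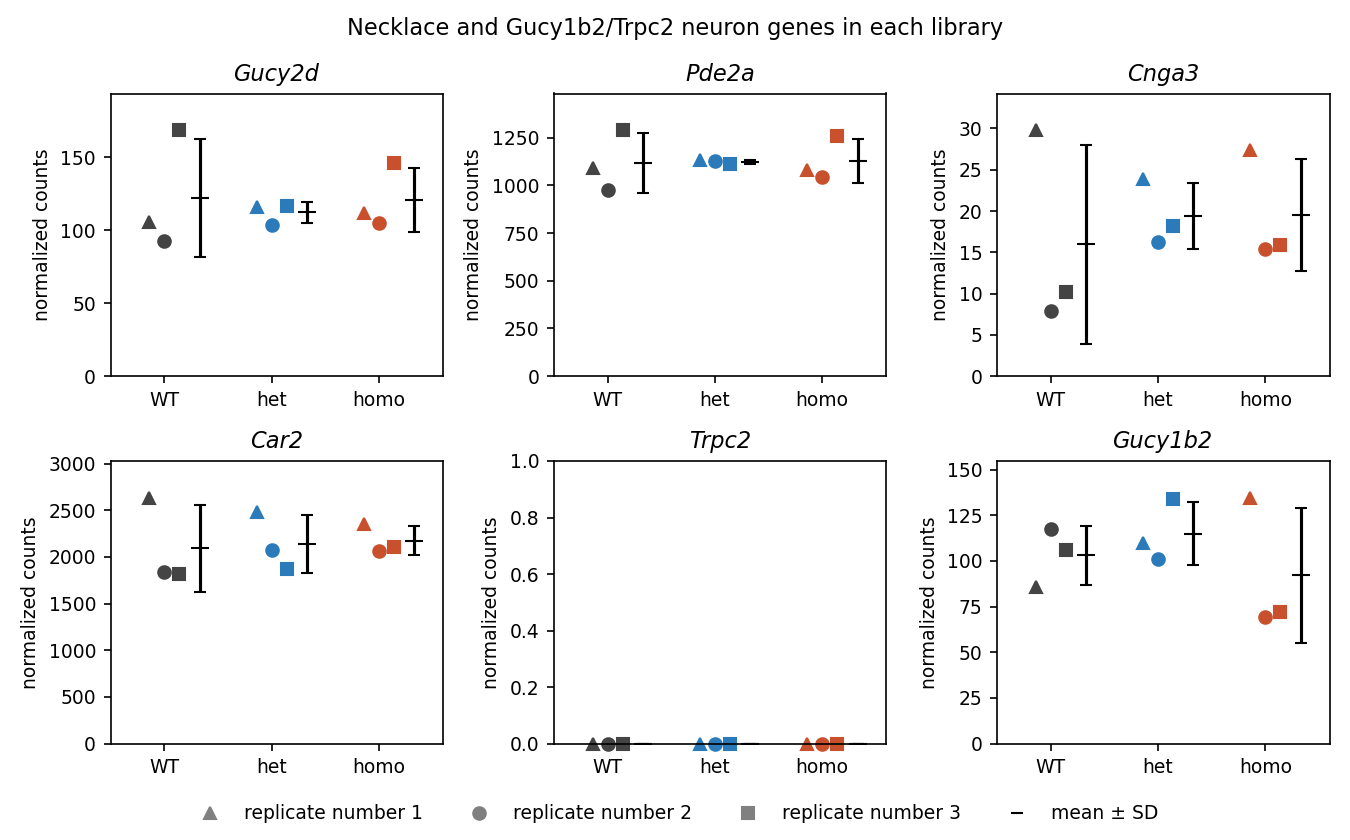
Normalized counts (y axis, from 0) of the 6 genes in each library, grouped by genotype. Symbols give the replicate number and the black bars the mean ± SD of 3 libraries. No gene separates the genotypes, Trpc2 is at 0 throughout, and for Cnga3 and Car2 the libraries numbered 1 (triangles) lie above all others.

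Gucy2d, the cyclase that defines necklace neurons, had normalized counts of 105, 92.5 and 169 in WT replicates 1 to 3. They were 116, 104 and 117 in het and 112, 105 and 146 in homo. WT replicate 3 and homo replicate 3 were the highest libraries, WT replicate 2 was the lowest, and the 3 genotypes overlapped. Means with their SD over 3 libraries were 122 ± 41 for WT, 112 ± 7.2 for het and 121 ± 22 for homo. The log2 fold change of homo against WT was −0.01 with a standard error (SE) of 0.25 and a 95% interval from −0.57 to 0.55, which in linear terms runs from 0.676 to 1.46 times the WT level. Without WT replicate 3, the highest library and the one with the high myeloid marker sum, the difference was 0.29. The difference for het against WT was −0.12 (SE 0.25, interval −0.68 to 0.43) and for homo against het 0.12 (SE 0.25, interval −0.44 to 0.67).

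Pde2a, the phosphodiesterase that cGMP itself stimulates, had normalized counts of 1090, 974.7 and 1288 in WT. They were 1134, 1126 and 1111 in het and 1080, 1043 and 1258 in homo. Its highest libraries were again the replicates 3 of WT and homo, and the genotype ranges overlapped. Means with their SD over 3 libraries were 1118 ± 159 for WT, 1124 ± 12 for het and 1127 ± 115 for homo. The log2 fold change of homo against WT was 0.02 (SE 0.12, interval −0.26 to 0.30), so the interval ran from 0.835 to 1.23 times the WT level and was the narrowest of the 5 genes.

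Cnga3, the channel subunit opened by cGMP, had normalized counts of 29.8, 7.84 and 10.25 in WT. They were 23.9, 16.2 and 18.1 in het and 27.4, 15.4 and 15.9 in homo. In each genotype the library numbered 1 was the highest, and WT held both the highest and the lowest value. Means with their SD over 3 libraries were 16.0 ± 12.03 for WT, 19.4 ± 4.0 for het and 19.5 ± 6.8 for homo. The log2 fold change of homo against WT was 0.33 (SE 0.52), with an interval from 0.559 to 2.85 times the WT level, which includes a change of 1.5-fold in either direction. Without WT replicate 1 the log2 difference was 1.13, and without WT replicate 2 it was −0.02.

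Car2, the enzyme that hydrates carbon dioxide, had normalized counts of 2632, 1834 and 1818 in WT. They were 2480, 2070 and 1873 in het and 2352, 2061 and 2107 in homo. The library numbered 1 was the highest in each genotype here too, and the genotypes overlapped. Means with their SD over 3 libraries were 2095 ± 465 for WT, 2141 ± 309 for het and 2174 ± 156 for homo. The log2 fold change of homo against WT was 0.06 (SE 0.16), with an interval from 0.811 to 1.34 times the WT level.

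Gucy1b2, the cyclase subunit of the Trpc2 population, had normalized counts of 85.6, 118 and 106 in WT. They were 110, 101 and 134 in het and 135, 69.6 and 72.0 in homo. Homo held both the highest and the lowest library, so its range covered those of WT and het. Means with their SD over 3 libraries were 103 ± 16 for WT, 115 ± 17 for het and 92.1 ± 37 for homo. The log2 fold change of homo against WT was −0.16 (SE 0.28, interval −0.79 to 0.46) and that of homo against het −0.32 (SE 0.28, interval −0.94 to 0.31), the largest homo against het difference of the 5 genes. These values moved with the homo libraries. They changed to −0.54 and −0.70 when homo replicate 1 was left out, to −0.0046 and −0.16 on leaving out homo replicate 2, and to −0.0061 and −0.17 on leaving out homo replicate 3.

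Across genotypes, 0 of the 5 tested genes were called at a Benjamini-Hochberg adjusted p-value under 0.05 and a fold change over 1.5 by edgeR's quasi-likelihood test, and 0 had an unadjusted p-value under 0.05. Adjusted p-values were 1 for all 5 genes in homo against WT, het against WT, homo against het and the joint test for any genotype difference. Trpc2 could not be tested. DESeq2 and limma-voom also called 0 of the 5. The background of these comparisons was low, at 0.0202% of the 19775 genes in homo against WT (4 genes), 0% in het against WT and 0.00506% in homo against het (1 gene), and a count of 0 among 5 genes is near it. Unadjusted p-values under 0.05 were found for 3.45%, 1.28% and 0.662% of genes. In each comparison 0 of the 5 had library ranges that did not overlap between genotypes, beside 5.68%, 3.95% and 4.15% of all genes. Taar6 fell by 3.29 on the log2 scale in homo against WT (SE 0.18, edgeR adjusted p = 0.000322). In bulk tissue, fewer cells of a type and less RNA per cell cannot be told apart.

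**Figure D3:**
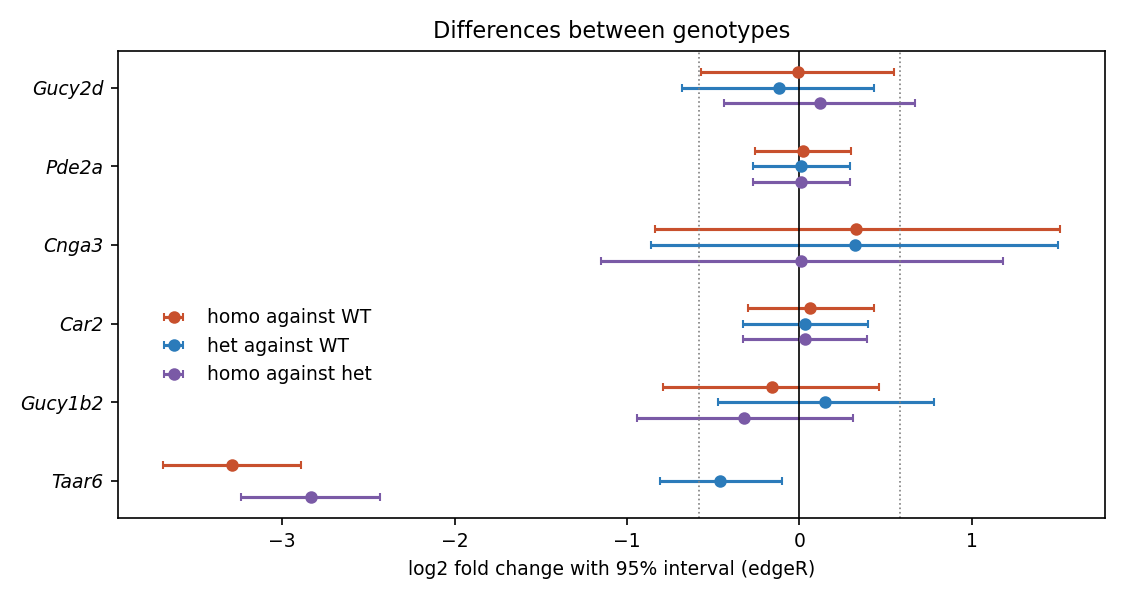
Log2 fold changes between genotypes (x axis) with their 95% intervals from edgeR for the 5 counted genes and Taar6. Dotted lines mark a change of 1.5-fold. Every interval of the 5 genes includes 0, those of Pde2a and Car2 stay within the dotted lines and those of Cnga3 pass both, whereas Taar6 in homo lies far below.

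The result was the same when each gene was set against Omp within the same library, a ratio that does not use library size. Per 1000 Omp counts, Gucy2d had 2.29 ± 0.76 counts (WT), 2.11 ± 0.21 (het) and 2.22 ± 0.48 (homo) as mean with SD over 3 libraries, and an exact permutation test over all assignments of the libraries gave p = 0.961. Gucy1b2 had 1.93 ± 0.32 counts per 1000 (WT), 2.17 ± 0.41 (het) and 1.72 ± 0.83 (homo), with an exact permutation p = 0.514. Exact permutation p-values for Pde2a, Cnga3 and Car2 were 0.954, 0.632 and 0.896, and the adjusted value was 0.961 for each of the 5 genes.

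Of the 5 genes, Cnga3 and Car2 differed between the libraries numbered 1 and the others, as did a large share of all genes. Cnga3 was higher in the 3 libraries numbered 1, at 23.9 to 29.8 normalized counts against 7.84 to 18.1 in the 6 others. With genotype in the model the log2 difference was 1.01 (SE 0.29, interval 0.34 to 1.67, edgeR adjusted p = 0.029), which made Cnga3 the 1 called gene of the 5, beside 8.96% of all genes. This call was lost without WT replicate 1 (0.66, edgeR adjusted p = 0.174), WT replicate 2 (0.87, 0.0511), homo replicate 1 (1.13, 0.0864), homo replicate 2 (1.02, 0.0601) or homo replicate 3 (1.05, 0.0551), and with DESeq2 (1.01, adjusted p = 0.0788). Car2 was at 2352 to 2632 normalized counts in the libraries numbered 1 against 1818 to 2107 in the others, a log2 difference of 0.35 (SE 0.07, edgeR adjusted p = 0.0049) that stayed under the fold-change limit. Neither gene's ranges overlapped, as was the case for 34% of all genes in this comparison, and 42.6% of all genes had an unadjusted p-value under 0.05. For Gucy2d, Pde2a and Gucy1b2 the log2 differences were −0.13 (SE 0.21), −0.04 (SE 0.10) and 0.18 (SE 0.23), with edgeR adjusted p-values of 0.679, 0.8 and 0.597. This comparison cannot show a difference between the libraries numbered 2 and those numbered 3. Gucy2d was highest in number 3 and lowest in number 2 in every genotype, and that order was not tested.

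Marker sums of other cells that can use Car2 or Cnga3 were compared over the same libraries. The 7 immature neuron markers summed to 2932 to 3005 CPM in the libraries numbered 1 and 2164 to 2751 CPM in the others, without overlap. The 8 osteoclast markers summed to 1022 to 1091 against 943 to 1062 CPM, and the 6 ionocyte and microvillous cell markers to 99.8 to 111 against 74.3 to 104 CPM. The 7 erythroid markers, 4 of them at 0, summed to 78.3 to 91.9 against 38.6 to 98.6 CPM. Single markers went both ways. Of the markers, 6 of 7 for immature neurons and 4 of 8 for osteoclasts were higher in the libraries numbered 1. So were 3 of 6 ionocyte and microvillous cell markers and 2 of 3 tested erythroid markers. The sums are therefore not read as amounts of these cells. The part of these cells in the Cnga3 and Car2 differences was not tested.

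Gucy2d and Pde2a varied together between libraries. Their log2 normalized counts had a Pearson correlation of 0.941 over 9 libraries (exact permutation p = 0.000397, adjusted p = 0.00397 over 10 gene pairs) and a Spearman correlation of 0.783 (exact permutation p = 0.0172, adjusted p = 0.0861). Without the 2 libraries farthest from the Gucy2d median, r was 0.814 over 7 libraries. In the 6 libraries numbered 2 and 3, r was 0.947 (exact permutation p = 0.00556, adjusted p = 0.0556), with a Spearman correlation of 0.829 (exact permutation p = 0.0583, adjusted p = 0.583). Without the 2 farthest of these, r was 0.8 over 4 libraries. The libraries numbered 1 were too few for a value of their own. These permutations exchange libraries freely and take no account of replicate number. Gucy2d was higher in number 3 than in number 2 in every genotype. Pde2a was higher in number 3 in WT and homo, but not in het. Whether the 2 genes vary together beyond a difference between numbers 2 and 3 was not tested. With genotype means and the difference of the libraries numbered 1 removed, their r was 0.96. On that scale 42 genes exceeded 0.95 with Gucy2d and 43 with Pde2a, so such a value is not particular to this pair. Endothelial cells, which also use Pde2a, had their highest marker sum in WT replicate 3, at 249 CPM over 8 genes against at most 218 CPM elsewhere, while the sum in homo replicate 3 was 173 CPM. Their part in the shared variation was not tested. Cnga3 and Car2 fall into separate clusters by replicate number, so no pooled value is given. Within the libraries numbered 2 and 3 their r was 0.649 (exact permutation p = 0.226, adjusted p = 0.755), and among the remaining 8 pairs the smallest adjusted exact permutation p was 0.486, for Car2 with Gucy1b2 (r = −0.784).

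Genes with the variation most like each of the 5 were listed as a description, after genotype means and the difference of the libraries numbered 1 had been removed, over 9 libraries and about 16151 genes. The 3 most like Gucy2d were Ano10 (r = 0.992), Plin3 (0.982) and Cnn3 (0.982). Those most like Pde2a were Smo (0.991), Col5a3 (0.991) and Blk (0.987), and those most like Cnga3 were Olfr136 (0.987), Ppih (0.981) and St6galnac1 (0.975). For Car2 they were Dqx1 (0.990), Prdx2 (0.987) and Rgs11 (0.985), and for Gucy1b2 Ccdc180 (0.993), Lhx6 (0.984) and Kcnrg (0.982). With so few libraries such values are common, since 12 to 59 genes exceeded 0.95 for each of the 5.

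The pathways around these genes were described with 8 lists holding 88 genes, of which 80 were tested. In homo against WT, het against WT and homo against het, 0 of the 80 were called by edgeR, DESeq2 or limma-voom, and 2, 2 and 1 had an unadjusted edgeR p-value under 0.05. The 9 other guanylate cyclases had a median log2 fold change of −0.01 in homo against WT, with values from −0.18 to 0.37, against a median of 0 over all genes tested. They include Gucy1a3 and Gucy1b3, the alpha and beta subunits of the main soluble cyclase, at −0.01 (SE 0.18) and −0.03 (SE 0.16), Gucy1a2, the other alpha subunit, at −0.01 (SE 0.29), and the natriuretic peptide receptors Npr1 and Npr2 at −0.18 (SE 0.18) and 0.07 (SE 0.09). Of 14 tested phosphodiesterases 7 had positive and 7 negative values, with a median of −0.01. Pde1c, the phosphodiesterase of olfactory cilia, was at 0.15 (SE 0.17), Pde5a at −0.29 (SE 0.21), Pde6d at −0.04 (SE 0.09) and Pde9a at 0.06 (SE 0.15).

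Of the cGMP effectors and calcium sensors, 8 were tested, with a median of 0.06 and values from −0.16 to 0.45. Cngb1, a subunit of the canonical olfactory channel, was at 0.06 (SE 0.10), the calcium sensor Ncald at −0.07 (SE 0.09) and the cGMP-dependent kinase Prkg1 at 0.06 (SE 0.14). The canonical cAMP cascade had a median of 0.07 over 10 genes, all between −0.02 and 0.19. Gnal was at 0.09 (SE 0.11), Adcy3 at 0.09 (SE 0.10), Cnga2 at 0.08 (SE 0.09), Omp at 0.05 (SE 0.11) and the cAMP phosphodiesterase Pde4a at −0.02 (SE 0.12). The 8 other Trp channels had a median of 0.07, with Trpc1 at 0.16 (SE 0.15) and Trpm4 at −0.15 (SE 0.13). The 15 other carbonic anhydrases had a median of −0.14 and values from −1.27 to 0.46. Among them, Car3 was at 0.04 (SE 0.30), Car12 at −0.33 (SE 0.28) and Car6, a secreted enzyme, at −0.95 (SE 0.47). Of 4 transcription factors, Emx1 was at −0.28 (SE 0.39), with Emx2 at 0.07 (SE 0.28), Lhx2 at 0.05 (SE 0.34) and Ebf1 at 0.13 (SE 0.14).

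The Ms4a family, the chemoreceptors of necklace neurons, was the list farthest from 0. Of 12 tested genes 11 were lower in homo than in WT, with a median log2 fold change of −0.95 and 0 called by edgeR, and 1 had an unadjusted p-value under 0.05. Ms4a6c, the most abundant, was at −0.75 (SE 0.60), Ms4a7 at −0.55 (SE 0.34), Ms4a6b at −0.90 (SE 0.57) and Ms4a1 at −0.20 (SE 0.82). Ms4a6c had normalized counts of 90.6, 194 and 512 in WT, 90.8, 148 and 280 in het, and 99.2, 214 and 160 in homo, so WT replicate 3 held by far the highest value. The list summed to 78.8 CPM in that library and to at most 40.6 CPM in any other, and the same library had the high myeloid marker sum. Several Ms4a genes are also expressed by myeloid, B or mast cells, and the part of these cells in the Ms4a values was not tested. Without WT replicate 3 the median was −0.05, with 7 of 12 genes lower in homo, and 0 were called.

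**Figure D4:**
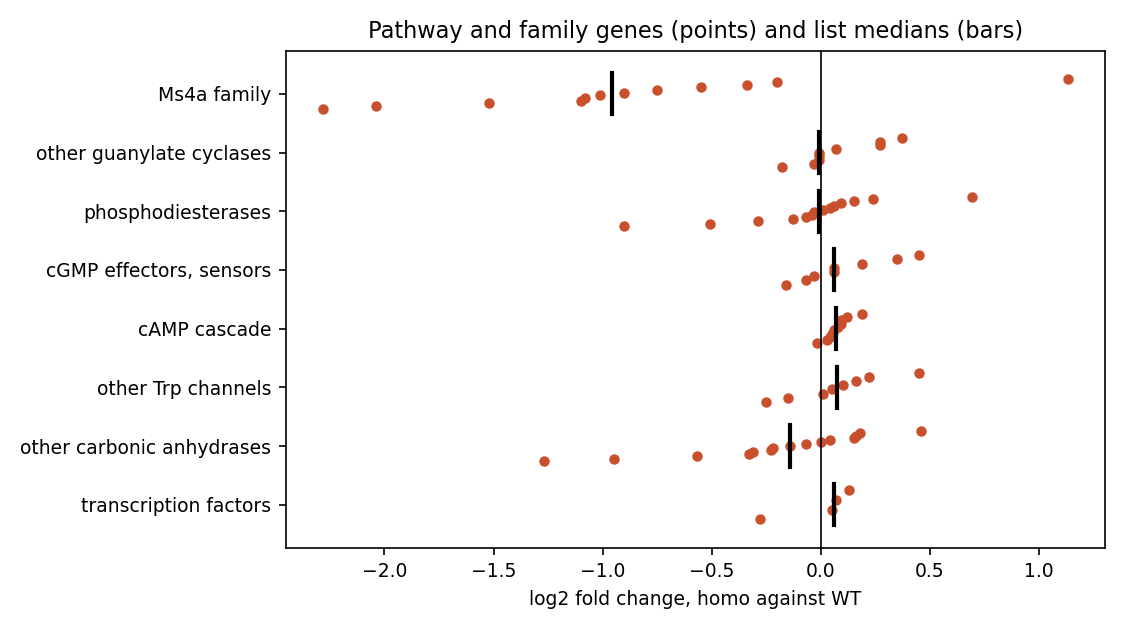
Log2 fold changes of homo against WT (x axis) for the 80 tested genes of 8 pathway and family lists, 1 point per gene, with a black bar at each list's median. The Ms4a family lies mostly below 0, with a median of −0.95 that was −0.05 without WT replicate 3, and the other medians lie between −0.14 and 0.07.

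Between replicate numbers, 16 of the 80 genes were called by edgeR, 8 higher and 8 lower in the libraries numbered 1, against 5.43% higher and 3.52% lower over all genes. Those lower were 7 of the 12 Ms4a genes, at a list median of −1.53, and Guca1b, a guanylate cyclase activator, at −1.43 (SE 0.20, edgeR adjusted p = 0.0014). Those higher were the carbonic anhydrases Car3, Car6, Car10 and Car12, the transcription factors Emx1, Emx2 and Lhx2, and Gng13, a G protein gamma subunit of olfactory neurons. Gng13 rose by 1.32 on the log2 scale (SE 0.11, edgeR adjusted p = 0.000182) and Lhx2 by 0.84 (SE 0.06, edgeR adjusted p = 0.00012). The myeloid marker sum was 190 to 202 CPM in the libraries numbered 1 and 195 to 608 CPM in the others.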

How the data were processed

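Whole MOE RNA from 9 mouse libraries (3 WT, 3 het, 3 homo, postnatal day 14) was sequenced after polyA selection with a directional kit. Per the submitters' processing notes, Trimmomatic 0.36, HISAT2 2.1.0 (mm10/GRCm38), featureCounts of Subread 1.6.2 and DESeq2 1.20.0 were used. The authors deposited raw counts per gene symbol for 24421 genes. They also deposited a normalized signal, these counts divided by 1 size factor per library (0.806 to 1.28), for 23129 genes. The annotation release, strand option and treatment of multiply assigned reads are not given in the sources used here.

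Raw counts were tested with edgeR 4.0.16 (R 4.3.3, quasi-likelihood, TMM, all 9 libraries sharing a spread estimate) for 19775 genes with at least 10 counts in all. Genes were called at a Benjamini-Hochberg adjusted p under 0.05 and a fold change over 1.5. The common biological coefficient of variation was 23.3%. Tests were two-sided. Ratios to Omp and correlations of log2(normalized count + 0.5) were tested by exact permutation of libraries. Exon overlap was computed from GENCODE vM21, in which 23313 of 24417 symbols matched 1 gene, and sequences are from its transcripts. CPM used TMM effective sizes. The scripts were tested on simulated data. DESeq2 1.42.0, limma-voom (limma 3.58.1), other scalings and filters, a replicate block and leaving out libraries were alternatives. Because the genotypes share replicate numbers, deviations from group means were correlated over 16206 genes. Same-numbered libraries correlated at 0.671, 0.448 and 0.613 for WT with het, 0.78, 0.305 and 0.11 for het with homo, and 0.511, 0.289 and −0.099 for WT with homo. The limit of 0.1 for every pair was met for het with WT and het with homo, and not for WT with homo. The pairing in the replicate block rests on these correlations and not on the labels. Libraries of different numbers were not correlated. Pairing therefore cannot be told apart from a shift of the libraries numbered 1 that the genotypes share.

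The genes, lists and tests were chosen with earlier results of these data known. Named genes are the 6 selected, Taar6, genes called in a genotype comparison, up to 4 of the highest mean CPM per list, genes with a role matching one of the 6, and the 3 most like each. Genes named for the replicate number comparison, Xntrpc, Xndc1 and the hemoglobin and other erythroid genes were chosen after their values were seen.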

Additional observations from a re-analysis of the deposited data

How the results depend on the processing

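The 0 calls among the 5 genes and among the 80 pathway genes held in homo against WT, het against WT and homo against het under every alternative run. The replicate block changed no call in these comparisons. The count of 1 called gene between replicate numbers (Cnga3) was 0 with DESeq2 and between 0 and 1 when single libraries were left out. Several differences changed sign. Gucy2d in homo against WT was 0.0186 with library totals, 0.033 with limma-voom and 0.0137 with the replicate block, where same-numbered libraries are paired. Cnga3 in homo against het was −0.0284 with limma-voom, −0.02 with the replicate block, −0.0229 with a term for replicate number 1 and −0.134 in libraries numbered 2 and 3 only, where Pde2a in het against WT was −0.0149. Leaving out single libraries gave the following log2 ranges. In homo against WT, Gucy2d lay between −0.182 and 0.291, Pde2a between −0.0749 and 0.126, Cnga3 between −0.0153 and 1.13, Car2 between −0.0386 and 0.271, and Gucy1b2 between −0.536 and −0.00464. In het against WT they lay between −0.292 and 0.177, −0.0819 and 0.116, −0.0231 and 1.12, −0.0882 and 0.243, and 0.0329 and 0.26. In homo against het they lay between −0.0429 and 0.203, −0.0732 and 0.0593, −0.305 and 0.188, −0.0609 and 0.15, and −0.697 and −0.158. Between replicate numbers, Gucy2d lay between −0.233 and 0.0232, Pde2a between −0.093 and 0.0258, and Gucy1b2 between −0.224 and 0.445. The Omp ratios of homo over WT lay between −0.187 and 0.241 for Gucy2d, −0.108 and 0.103 for Pde2a, and −0.0817 and 0.207 for Car2. The cause of these sign changes was not tested. Cnga3 had the fewest counts of the 5 genes, at 10 to 24 per library, and its part in the width of its intervals was not tested. Of 596 alternative values, 541 kept the direction and the call or, for counts of called genes, the count. Some of these were fixed in advance. The Omp ratios of homo over WT cannot change under the replicate block or when a het library is left out.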

Other observations

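The homo libraries differed among themselves in Gucy1b2, with 1 library high and 2 low. In the libraries numbered 1, normalized counts were 85.6 in WT, 110 in het and 135 in homo, a homo level 1.57 times that of WT. In the libraries numbered 2 and 3 they were 118 and 106 in WT, 101 and 134 in het, and 69.6 and 72.0 in homo. Gucy1b2 was picked for these values, and the share of all genes with both homo libraries below all 4 others was not computed. The order is therefore not read as a difference between genotypes. In these 6 libraries the log2 fold change of homo against WT was −0.658 (edgeR adjusted p = 0.685). The interaction of genotype with replicate number 1, which was tested after these values had been seen, gave a log2 difference of 1.31 between the homo against WT contrasts (edgeR adjusted p = 1), and 0 genes of the table were called for it. With 1 library numbered 1 per genotype and a gene chosen for its values, a difference that follows the number is not shown. For the other 4 genes the same difference was 0.14 for Gucy2d, −0.04 for Pde2a, −0.92 for Cnga3 and −0.35 for Car2, each with an edgeR adjusted p of 1.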
